A study of Mus musculus with 8 samples.

Results

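The 9 Hedgehog pathway genes described here are Shh, Ptch1, Smo, Gli1, Gli2, Gli3, Hhip, Scube2 and Cdon. They were found by gene symbol, through the transcript accession printed for each array probe, and all 9 were among the 13790 genes tested. RNA of neural stem and progenitor cells, which had been derived from mouse embryonic stem cells and cultured as floating spheres, was measured on 8 Agilent arrays of 1 colour. NFIA is a transcription factor that starts astrocyte formation, and cells overexpressing it were grown in mixed spheres with control cells, and the 2 kinds of cell were parted by fluorescence sorting before RNA was taken. The 4 groups, of 2 arrays each, were NFIA cells of secondary neurospheres (SN_NFIA) and their controls (SN_control), both at passage 1 and day 12, and NFIA cells of primary neurospheres (PN_NFIA) and their controls (PN_control), both at passage 0 and day 6. The promoter and origin of the NFIA transgene, and whether the overexpressing line is a single clone, are not given in the sources used here. Nothing in the labels says that the 2 arrays of a group came from separate cultures, so p-values measure the spread between these samples, which may be technical. Nor do the labels say which NFIA and control arrays came from the same mixed spheres, and the main tests fitted no pairs. Deviations of same-numbered arrays correlated at 0.445 in primary and 0.484 in secondary neurospheres, and fits with replicate blocks are given at the end.

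Hedgehog ligands such as Shh are lipid-bearing secreted proteins that need carriers such as Scube2 to leave the cell. They bind the receptor Ptch1, aided by co-receptors such as Cdon, which frees Smo to act through the Gli transcription factors. Ptch1, Gli1 and Hhip are themselves switched on by the pathway, and Ptch1 and Hhip damp it. In the developing neural tube the pathway sets ventral cell identities, and it sustains division of neural progenitors.

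Some arrays stood apart or went against their labels. The scanner file attached to 7 of the 8 samples held another array than the authors' value table, and every value below follows the value table. All 4 control samples had a source name of the NFIA OE line, and PN_NFIA 1 and SN_NFIA 2 had a source name of WT, while groups here follow the titles. Both passage and NFIA followed the position on the slide (rows and columns) and cannot be told apart from it. SN_control 1 and SN_control 2 correlated less with each other (r = 0.944 across genes) than SN_control 1 did with an array of another group (0.964). On SN_control 2, 45 of 13790 genes lay more than 2 log2 units above all the other arrays, against 0 to 35 on each of the others. All 8 listed neural stem and progenitor markers were well above background on all 8 arrays.

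The label was checked first on Nfia. Its brighter probe read 1.70 and 1.62 in SN_NFIA, against 1.00 and 0.61 in SN_control, and −0.24 and 0.93 in PN_NFIA, against −1.30 and −0.30 in PN_control. These and all levels below are log2 signal minus the 75th percentile of the array, so 0 stands for that percentile, and a level of 1 gene is not to be set against that of another. The NFIA arrays lay above the control arrays at both passages, as the brightest probe did for 8.61% of all genes. The difference over both passages was 1.0 ± 0.32 (SE), with an adjusted p of 0.171 (limma). A second, dimmer Nfia probe differed by 1.95 ± 0.43. Adjusted over all probes in place of all genes, p was 0.0727 for this probe and 0.182 for the brighter one. Whether either probe reads the transgene is not given in the sources used here.

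By the brightest probe of each gene, Scube2 was the only member of the 9 that rose in NFIA cells. In secondary neurospheres its signal was 16.8-fold higher in NFIA cells than in controls. The receptor Ptch1, the transducer Smo, the transcription factors Gli1, Gli2 and Gli3, the ligand Shh, the inhibitor Hhip and the co-receptor Cdon did not pass the test there, with differences between −1.75 and 0.75. In these bulk samples, fewer cells of a type and less RNA per cell cannot be told apart.

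**Figure D1:**
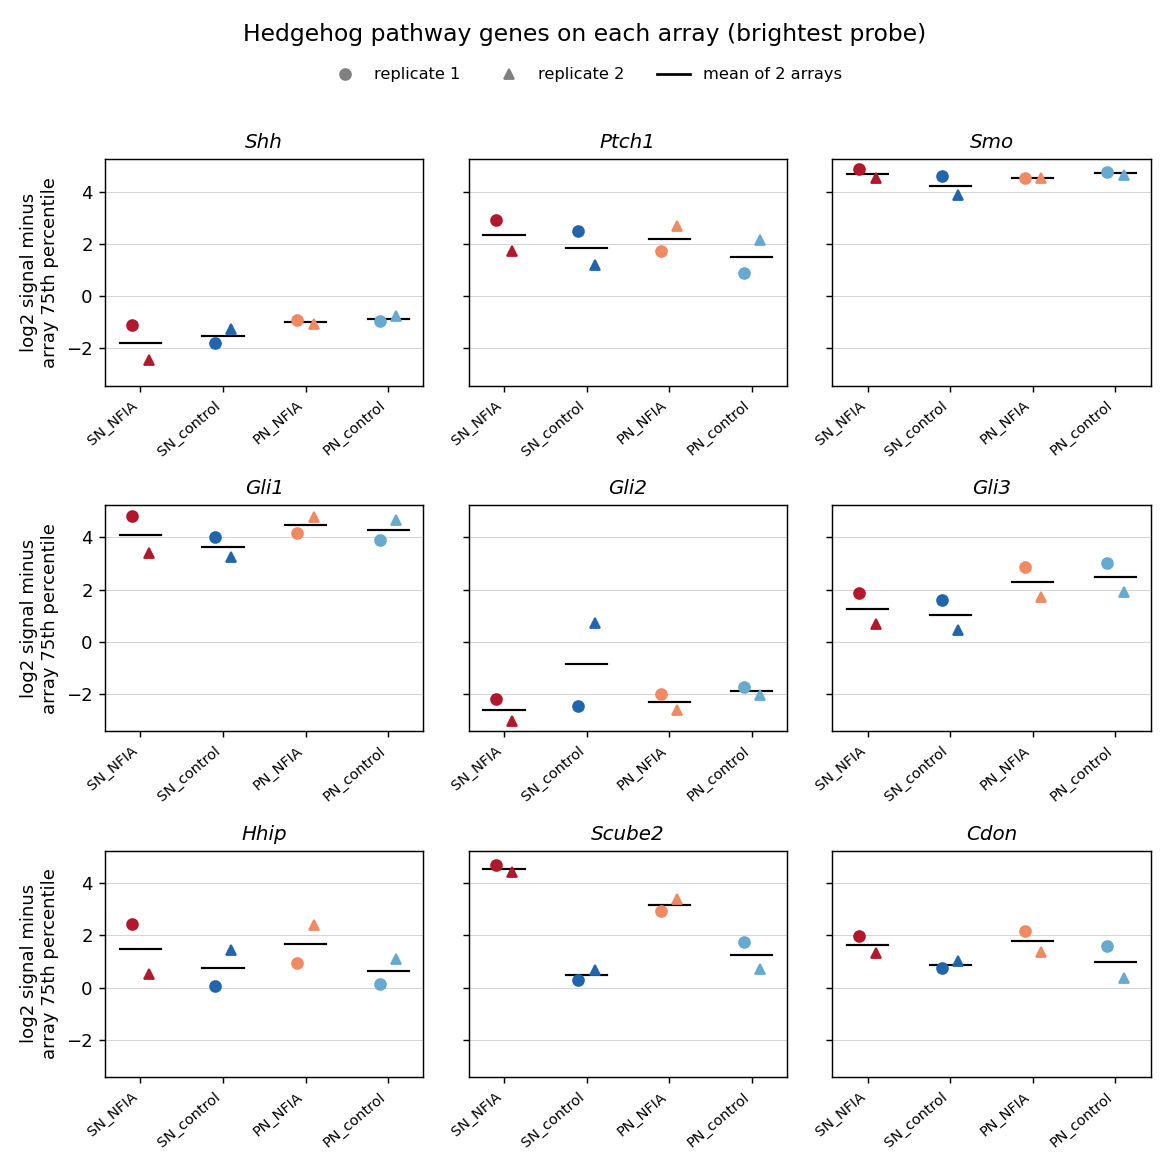
Level of each of the 9 Hedgehog pathway genes on each array (y axis, log2 signal minus the 75th percentile of the array), by group (x axis). Circles are replicate 1, triangles replicate 2 and lines the mean of the 2 arrays. Scube2 reads 4.41 and 4.70 in SN_NFIA, above every other array, while Gli2 has a single high array, SN_control 2 at 0.74.

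Scube2 encodes a secreted protein that binds Hedgehog ligands and releases them from the cells that make them. Its brighter probe read 4.70 and 4.41 in SN_NFIA, against 0.31 and 0.67 in SN_control. It read 2.95 and 3.39 in PN_NFIA, against 1.75 and 0.73 in PN_control. The order of the groups from high to low was SN_NFIA, PN_NFIA, PN_control and SN_control, and no neighbours in this order overlapped. The share of all genes with 4 groups so parted was not computed. Group means were 4.56 ± 0.21 in SN_NFIA, 0.49 ± 0.25 in SN_control, 3.17 ± 0.31 in PN_NFIA and 1.24 ± 0.72 in PN_control (SD, n = 2 each).

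The promoter of Scube2 is shown because it is the member that rose. It is taken from RefSeq on GRCm38.p6, minus strand, chr7:109865630-109865929, from 250 bases before to 50 bases after the start of the gene. Capitals mark GCCAA, the reverse complement of the core TTGGC of sites bound by NFI proteins, the family of NFIA. Its first base is base 83 of the sequence.
Scube2: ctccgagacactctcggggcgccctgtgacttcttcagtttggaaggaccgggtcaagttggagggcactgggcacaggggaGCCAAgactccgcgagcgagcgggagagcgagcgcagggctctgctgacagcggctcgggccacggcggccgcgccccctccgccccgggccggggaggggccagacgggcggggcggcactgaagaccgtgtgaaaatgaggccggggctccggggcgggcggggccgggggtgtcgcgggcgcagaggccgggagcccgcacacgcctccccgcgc

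Both strands were searched, and promoter entries were found for 7 of the 9 members. The core TTGGC occurred in 2 of the 7, Scube2 and Smo, and in 46.7% of all 32851 promoters of the same length. The paired NFI site, in which TTGGC and GCCAA are parted by 5 bases and which contains the core, occurred in 0 of the 7 and in 0.0365% of all. The GLI site GACCACCCA occurred in 0 of the 7 and in 0.253% of all. A match of letters is a description of the sequence and no evidence of binding.

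In secondary neurospheres Scube2 differed by 4.07 ± 0.39 on the log2 scale between NFIA and control cells (95% interval 3.16 to 4.98, adjusted p = 0.0156, limma with Benjamini-Hochberg adjustment over all genes). Of all genes tested, 0.935% passed in this comparison, and 0.486% passed as higher in NFIA cells. The second Scube2 probe read 1.73 and 1.58 in SN_NFIA, against −2.53 and −1.89 in SN_control, and differed by 3.86 ± 0.34 (adjusted p = 0.0156 when it stood for the gene). Both probes, which read the same RNA samples, thus placed both NFIA arrays above both control arrays. Groups did not overlap, in either direction, for 38.9% of all genes. The adjusted p was 0.072 without SN_NFIA 1, 0.0821 without SN_NFIA 2, 0.0861 with the 4 secondary arrays fitted alone and 0.128 without both arrays of conflicting labels. With groups taken from the source names the difference was −2.52, and with the scanner files as attached it was −1.45, and neither passed the test.

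In primary neurospheres the Scube2 difference was 1.93 ± 0.39 (3.8-fold), with an adjusted p of 0.127. The second probe read 0.21 and 0.75 in PN_NFIA, against −0.90 and −1.43 in PN_control, with a difference of 1.64 ± 0.34 (limma, adjusted p = 0.136). Both probes kept the groups apart, as the brightest probe did, in either direction, for 52.0% of all genes. None of the 9 members passed in primary neurospheres, where 0.312% of all genes did, and 1, Scube2, had an unadjusted p under 0.05, as did 9.56% of all genes (limma). Over both passages, with passage as a term, Scube2 rose by 3.0 ± 0.46 (7.99-fold, 95% interval 1.93 to 4.06, adjusted p = 0.0235), as 1 of 9 members that passed, against 1.97% of all genes and 1.78% as higher. That call was lost without PN_control 2, PN_NFIA 2, SN_control 1, SN_NFIA 1 or SN_NFIA 2, each left out alone (adjusted p between 0.0626 and 0.0809). It turned to −1.76 with groups from the source names and to −1.07 with the files as attached.

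Like Scube2, astrocyte markers had higher levels in NFIA cells than in control cells of the same passage. The summed signal of the 5 listed markers (Gfap, Aqp4, Aldoc, Slc1a3 and S100b), in multiples of the 75th percentile of the array, was 168 to 374 in SN_NFIA, against 15.9 to 107 in SN_control, and 32.3 to 77.7 in PN_NFIA, against 8.44 to 10.9 in PN_control. All 5 had higher means in NFIA cells at both passages, 2 of the 5 were above background on all 8 arrays, and 0 passed the test. NFIA and control groups did not overlap for 3 of the 5 in secondary and 5 in primary neurospheres, against 38.9% and 52.0% of all genes. Between passages in control cells, all 5 had positive differences, secondary minus primary (median 1.89), while Scube2 differed by −0.75 ± 0.39. The listed mesenchymal markers summed to 24.4 to 30.4 in SN_NFIA, against 38.2 to 51.9 in SN_control, and to 9.32 to 11.4 in PN_NFIA, against 1.55 to 4.57 in PN_control, and 1 of the 4 passed as higher over both passages. The listed neural stem and progenitor markers summed to 383 to 649 in SN_NFIA, against 237 to 269 in SN_control. In primary neurospheres they summed to 237 to 312 in PN_NFIA, against 317 to 345 in PN_control. The part of any of these cell types in the Scube2 difference was not tested.

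**Figure D2:**
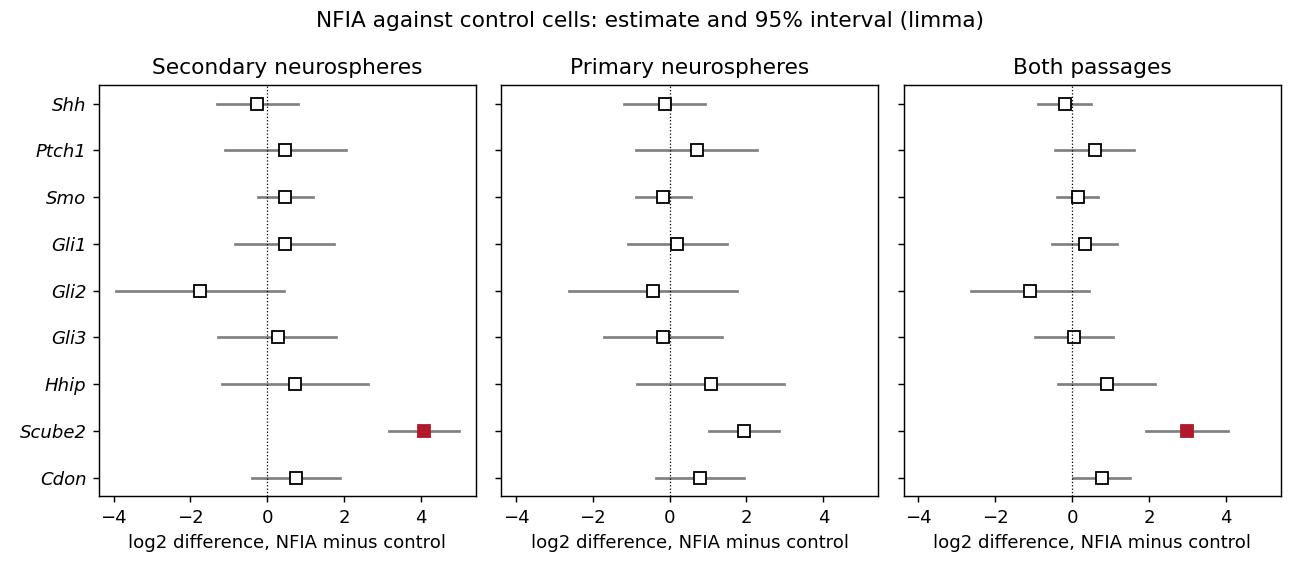
Log2 difference, NFIA minus control (x axis), with its 95% interval, for each of the 9 genes in secondary neurospheres, in primary neurospheres and over both passages. Filled squares passed the test (adjusted p under 0.05): Scube2 at 4.07 in secondary neurospheres and at 3.0 over both passages, while its 1.93 in primary neurospheres did not.

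Cdon, a membrane co-receptor that binds Shh, had positive differences at both passages. Its brighter probe read 1.97 and 1.31 in SN_NFIA, against 0.75 and 1.02 in SN_control, and 2.16 and 1.38 in PN_NFIA, against 1.61 and 0.36 in PN_control. The groups did not overlap in secondary neurospheres and overlapped in primary ones. Over both passages the difference was 0.77 ± 0.32 (95% interval 0.02 to 1.52), with an adjusted p of 0.271. The dimmer probe read −1.35 and −1.61 in SN_NFIA, against −2.60 and −2.56 in SN_control, and −1.25 and −1.78 in PN_NFIA, against −2.26 and −2.70 in PN_control, with no overlap at either passage. When that probe stood for the gene, a choice made after its values were seen, the difference over both passages was 1.03 ± 0.19 (95% interval 0.58 to 1.47, adjusted p = 0.0429), while it was 1.1 ± 0.29 in secondary (adjusted p = 0.133) and 0.96 ± 0.29 in primary neurospheres (adjusted p = 0.324). Both NFIA arrays lay above both control arrays at each passage on this probe, as the brightest probe did for 8.61% of all genes.

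**Figure D3:**
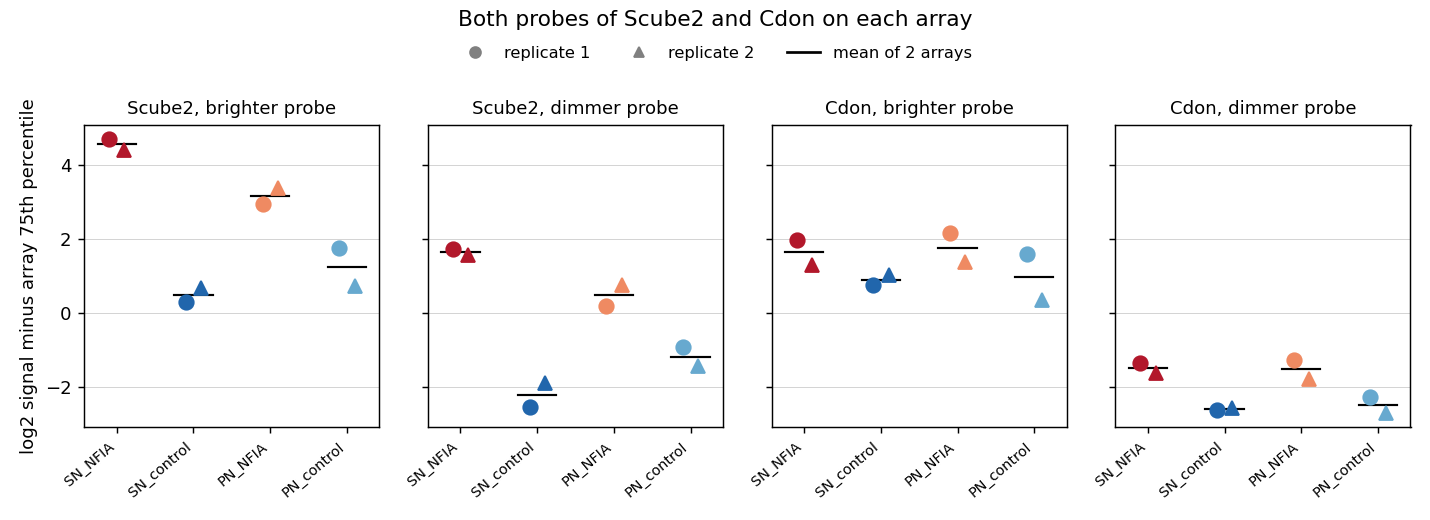
Level on each array (y axis, log2 signal minus the 75th percentile of the array) of both probes of Scube2 and of Cdon, by group (x axis), with circles for replicate 1, triangles for replicate 2 and lines for the mean. Both Scube2 probes and the dimmer Cdon probe separate NFIA from control arrays at each passage, while the brighter Cdon probe overlaps in primary neurospheres, at 1.38 in PN_NFIA and 1.61 in PN_control.

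Shh, the ligand itself, was well above background on all 8 arrays. It read −1.12 and −2.46 in SN_NFIA, against −1.81 and −1.25 in SN_control, and −0.91 and −1.06 in PN_NFIA, against −0.96 and −0.77 in PN_control. NFIA and control cells overlapped at both passages, and the difference over both was −0.19 ± 0.30 (95% interval −0.88 to 0.50, adjusted p = 0.794). All 4 secondary arrays lay below all 4 primary arrays, though SN_NFIA 1 at −1.12 was close to PN_NFIA 2 at −1.06. The share of all genes with this order was not computed. Groups of the 2 passages did not overlap, in either direction, for 57.1% of all genes in NFIA cells and 42.9% in control cells. The passage difference, secondary minus primary, was −0.80 ± 0.45 in NFIA cells (adjusted p = 0.354) and −0.67 ± 0.45 in control cells (adjusted p = 0.566).

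Ptch1, the receptor that holds Smo inactive until ligand binds, read 2.91 and 1.73 in SN_NFIA, against 2.50 and 1.19 in SN_control, and 1.72 and 2.68 in PN_NFIA, against 0.87 and 2.13 in PN_control. The groups overlapped at both passages, but each NFIA array read higher than the control array of the same replicate number. No label says that these numbers mark a shared culture. Its difference over both passages was 0.59 ± 0.45 (95% interval −0.44 to 1.62, adjusted p = 0.554). With same-numbered arrays of a passage fitted as a block, the adjusted p was 0.0948 (limma).

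Hhip, a membrane protein that binds and sequesters Hedgehog ligands, read 2.43 and 0.52 in SN_NFIA, against 0.06 and 1.43 in SN_control, and 0.95 and 2.41 in PN_NFIA, against 0.16 and 1.08 in PN_control. The higher NFIA array was above both controls and the lower one was not, at each passage. The difference over both passages was 0.90 ± 0.54 (95% interval −0.36 to 2.15, adjusted p = 0.445). A second Hhip probe was above background on only 2 arrays and was not used.

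Smo, the membrane protein that passes the signal inside, varied least of the 9 members by the brightest probe of each, with an SD of 0.30 over the 8 arrays. It read 4.85 and 4.53 in SN_NFIA, against 4.59 and 3.86 in SN_control, and 4.53 on both arrays of PN_NFIA, against 4.74 and 4.65 in PN_control. The NFIA arrays were thus both below the controls in primary neurospheres and overlapped them in secondary ones. Its difference over both passages was 0.15 ± 0.23 (95% interval −0.38 to 0.68, adjusted p = 0.786), and 0.24 ± 0.35 on a second, dimmer probe (adjusted p = 0.775). That dimmer probe varied more, from 0.38 to 2.35, with SN_NFIA 2 highest.

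Gli1, a transcriptional activator and itself a target of the pathway, read 4.80 and 3.39 in SN_NFIA, against 4.03 and 3.23 in SN_control, and 4.18 and 4.79 in PN_NFIA, against 3.90 and 4.66 in PN_control. The groups overlapped at both passages, and the difference over both was 0.33 ± 0.37 (95% interval −0.52 to 1.18, adjusted p = 0.698). As for Ptch1, each NFIA array read higher than the same-numbered control array, and with the block the adjusted p was 0.292 (limma). The same order held for Scube2 and Cdon, and with the block the adjusted p of Cdon over both passages was 0.108 (limma). The share of all genes with this order was not computed. The differences of Ptch1, Hhip and Gli1, the members that the pathway switches on, were all positive and did not pass the test. Their intervals over both passages include 0 and reach more than 2-fold higher. Of the 22 tested genes of a longer target list, described below, 12 had positive and 10 negative differences over both passages. The counts were 7 and 15 in secondary neurospheres and 10 and 12 in primary ones.

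Gli2 encodes a main activator of Hedgehog targets, and its values rested on a single array. It read −2.18 and −3.03 in SN_NFIA, against −2.46 and 0.74 in SN_control, and −2.0 and −2.62 in PN_NFIA, against −1.73 and −2.03 in PN_control. SN_control 2 stood above the other 7 arrays, which lay between −3.03 and −1.73. The difference in secondary neurospheres was −1.75 ± 0.93 (adjusted p = 0.441), and it was −0.15 ± 0.46 without SN_control 2 (adjusted p = 0.886) and −3.34 ± 0.46 without SN_control 1 (adjusted p = 0.0578). The passage difference in control cells was 1.02 ± 0.93 (adjusted p = 0.677), −0.58 ± 0.46 without SN_control 2 (adjusted p = 0.667) and 2.62 ± 0.46 without SN_control 1, which passed the test (adjusted p = 0.0415).

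Gli3, which acts chiefly as a repressor when no ligand is present, read 1.88 and 0.67 in SN_NFIA, against 1.59 and 0.44 in SN_control, and 2.86 and 1.72 in PN_NFIA, against 3.01 and 1.92 in PN_control. NFIA and control cells overlapped at both passages, with a difference over both of 0.05 ± 0.44 (95% interval −0.97 to 1.07, adjusted p = 0.972). By passage, secondary minus primary, the difference was −1.01 ± 0.65 in NFIA cells (adjusted p = 0.416) and −1.45 ± 0.65 in control cells (adjusted p = 0.391). The control groups of both passages did not overlap, as for 42.9% of all genes, while the NFIA groups did. In all 4 groups replicate 1 read higher than replicate 2. Compared by number, each secondary array read lower than the primary array in both kinds of cell, though no label links the numbers of the 2 passages.

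Passage was then compared within each kind of cell. Of the 9 members, 0 passed between secondary and primary neurospheres in NFIA cells, where 1.89% of all genes did, and 0 passed in control cells, where 0.863% did (limma). At an unadjusted p under 0.05 there were 1 member in NFIA cells, Scube2, and 0 in control cells, against 21.2% and 13.5% of all genes. Scube2 differed by 1.39 ± 0.39 in NFIA cells (95% interval 0.47 to 2.30, adjusted p = 0.108) and by −0.75 ± 0.39 in control cells (95% interval −1.67 to 0.16, adjusted p = 0.449). Groups did not overlap for 3 of 9 members in NFIA cells, with Smo and Scube2 higher and Shh lower in secondary neurospheres, against 57.1% of all genes. In control cells they did not overlap for 4 of 9, with Shh, Smo, Gli3 and Scube2 all lower in secondary neurospheres, against 42.9% of all genes. The median passage difference of the 9 members was −0.21 in NFIA cells and −0.47 in control cells, beside −0.05 and −0.12 over all genes.

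The NFIA difference was also compared between the passages. For Scube2 it was larger in secondary than in primary neurospheres by 2.14 ± 0.55 (95% interval 0.85 to 3.43), with an adjusted p of 0.394. None of the 13790 genes passed this test (0%), while 931 genes (6.75%) and 1 of the 9 members, Scube2, had an unadjusted p under 0.05 (limma). For the other 8 members the difference of effects lay between −1.32 for Gli2 and 0.63 for Smo.

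Over the 9 members, the median NFIA difference was 0.47 in secondary neurospheres, 0.20 in primary neurospheres and 0.33 over both passages, beside −0.02, −0.08 and −0.05 over all genes. The estimates were positive for 7 of 9 members in secondary neurospheres, for 5 in primary neurospheres and for 7 over both. Groups did not overlap for 2 of 9 in secondary neurospheres (Scube2 and Cdon, both higher in NFIA cells), against 38.9% of all genes. They did not overlap for 2 of 9 in primary neurospheres (Scube2 higher and Smo lower), against 52.0% of all genes.

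Other components of the pathway were read from a list of 37 genes, of which 36 were tested. None passed between NFIA and control cells in secondary neurospheres, in primary neurospheres or over both passages (limma), and 4, 2 and 5 of the 36 had an unadjusted p under 0.05, against 15.1%, 9.56% and 17.7% of all genes. The median difference was −0.02 in secondary neurospheres, −0.02 in primary neurospheres and 0.01 over both. By role, the medians in secondary neurospheres were −0.60 for 6 genes of ligands and their release, 0.73 for 5 genes of reception, −0.01 for 17 genes of signal transduction and 0.35 for 8 genes of the primary cilium, the organelle in which the signal is passed on. In the same order of roles, the medians were −0.22, 0.47, −0.01 and −0.20 in primary neurospheres and −0.31, 0.39, 0.02 and 0.03 over both passages.

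Of the co-receptors, Boc, a relative of Cdon, read −0.14 and −0.38 in SN_NFIA, against −1.56 and −2.16 in SN_control, a difference of 1.61 ± 0.40 (adjusted p = 0.12). It read −0.05 and −0.15 in PN_NFIA, against −0.02 and −1.12 in PN_control, so that the groups overlapped in primary neurospheres. Over both passages the smallest p-values of the list belonged to Arrb2, an arrestin that binds active Smo (−0.59 ± 0.17, adjusted p = 0.136), Boc (1.04 ± 0.34, adjusted p = 0.174), Tulp3, an adaptor for transport into the cilium (0.48 ± 0.18, adjusted p = 0.225), and Lrp2, an endocytic receptor that takes up Shh (−0.66 ± 0.27, adjusted p = 0.254).

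Lrp2 was the only component of that list that passed a test between passages, in NFIA cells, while 7 of 36 components in each kind of cell had an unadjusted p under 0.05, against 21.2% of all genes in NFIA cells and 13.5% in control cells. It read −1.19 and −0.89 in SN_NFIA, against 1.38 and 0.65 in PN_NFIA, and fell by 2.05 ± 0.33 on the log2 scale (adjusted p = 0.0384). In control cells it read −0.18 and 0.30 in SN_control, against 1.30 and 1.18 in PN_control, a difference of −1.18 ± 0.33 (adjusted p = 0.198). The call in NFIA cells was lost without PN_control 1, PN_control 2, PN_NFIA 1, PN_NFIA 2, SN_NFIA 1 or SN_NFIA 2 (adjusted p between 0.0618 and 0.254). It was also lost with no filter on dim probes (0.0727), with only the groups compared (0.059), with source names (0.355) and without both arrays of conflicting labels (0.515), and with the files as attached the difference was 0.12. The 3 listed pluripotency markers summed to 1.21 to 1.68 in SN_NFIA, against 2.74 to 3.9 in PN_NFIA, and 1 of them passed as lower. The 2 tested endoderm markers of 4 listed summed to 6.48 to 10.1 in SN_NFIA, against 12.4 to 17.9 in PN_NFIA, and 0 passed. In control cells, where Lrp2 was also lower in secondary neurospheres, the pluripotency markers summed to 2.46 to 2.74 in SN_control, against 1.95 to 1.97 in PN_control. The endoderm markers summed to 8.73 to 11.4 in SN_control, against 10.3 to 12.9 in PN_control. The part of either cell type in the Lrp2 difference was not tested. Among the ligands, Ihh differed by −3.30 ± 0.65 (adjusted p = 0.0576) between secondary and primary neurospheres in NFIA cells. In control cells Ihh differed by −0.26 ± 0.65 (adjusted p = 0.888). Its NFIA difference was 1.51 in primary and −1.53 in secondary neurospheres, and neither passed. Scube3, a relative of Scube2, was not well above background in SN_NFIA and was at least 4.06-fold lower there than in PN_NFIA (adjusted p = 0.0591). Scube3 was also 4.31-fold lower in SN_control than in PN_control (adjusted p = 0.164).

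**Figure D4:**
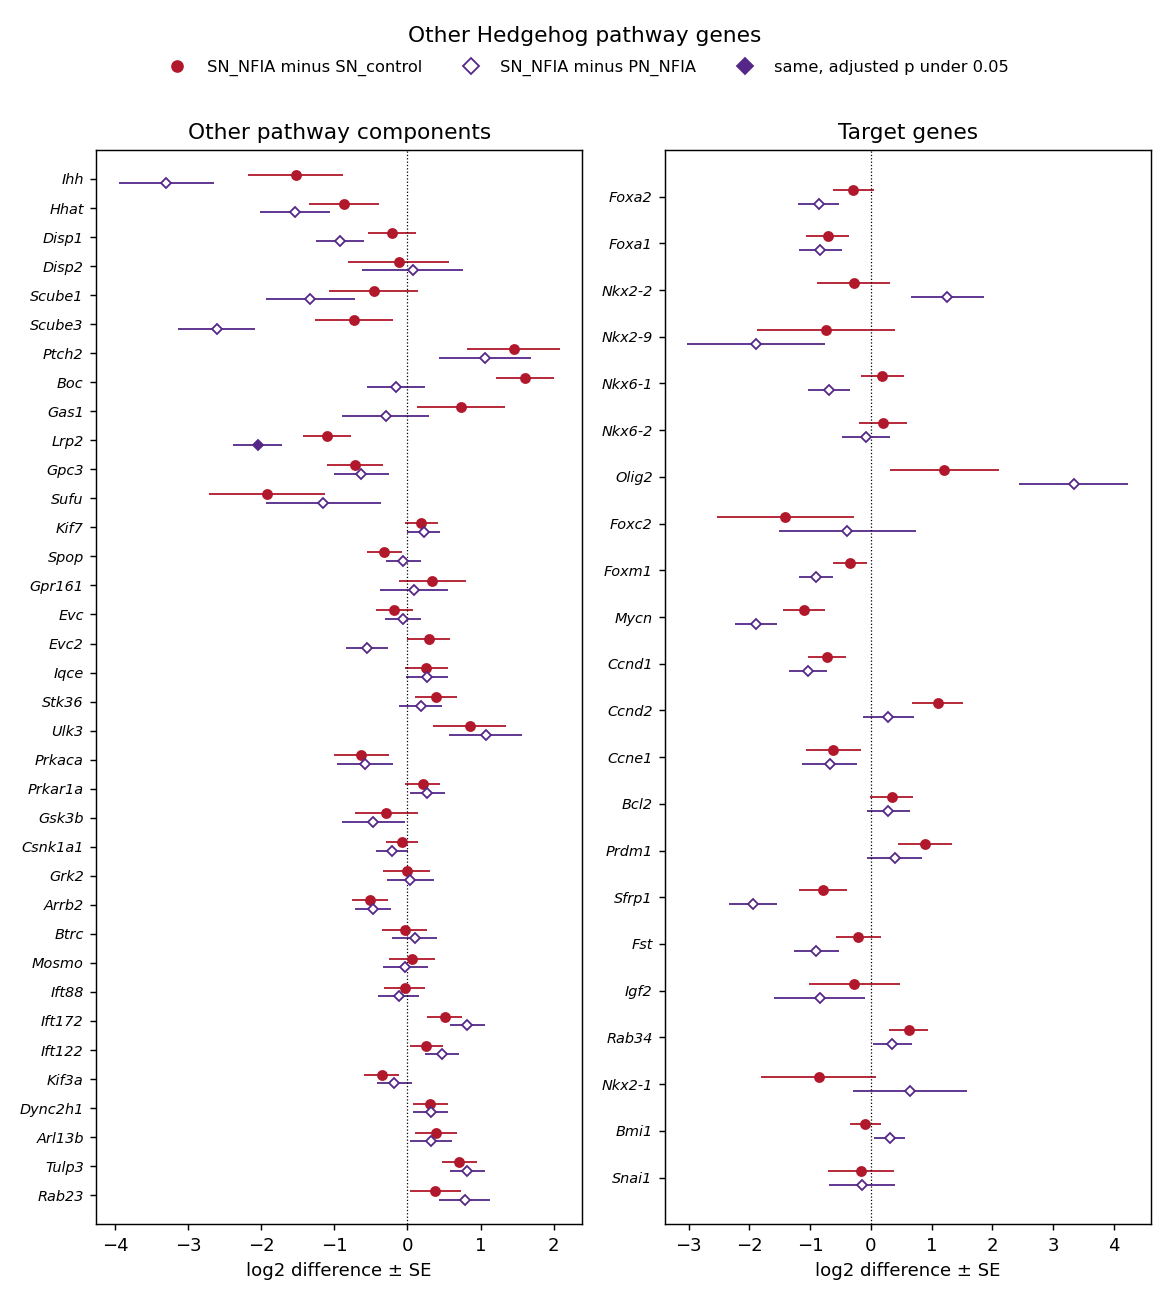
Log2 difference ± SE (x axis) for the tested genes of 2 lists, other pathway components at left and target genes at right. Circles are SN_NFIA minus SN_control, diamonds SN_NFIA minus PN_NFIA, and a filled diamond passed the test, which only Lrp2 did, at −2.05. Scube3 was not well above background in SN_NFIA, and its points are the fitted differences, −0.73 (circle) and −2.61 (diamond), not bounds. The bounds are at least 1.1-fold lower than SN_control and at least 4.06-fold lower than PN_NFIA.

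A list of 26 genes described as targets of Hedgehog signalling in vertebrate tissues had 22 tested. None of the 22 passed in any of the 6 comparisons (limma). Between NFIA and control cells, 2 in secondary neurospheres, 3 in primary neurospheres and 4 over both had an unadjusted p under 0.05, against 15.1%, 9.56% and 17.7% of all genes, and the median differences were −0.28, −0.10 and 0.04. Between passages such unadjusted p-values were found for 7 targets in NFIA cells and 5 in control cells, and for 2 in the difference of effects, against 21.2%, 13.5% and 6.75% of all genes. Over both passages the smallest p-values belonged to the cyclin gene Ccnd1 (−0.91 ± 0.21, adjusted p = 0.0823), the transcriptional repressor Prdm1 (1.23 ± 0.32, adjusted p = 0.113), the proliferation factor Mycn (−0.83 ± 0.25, adjusted p = 0.153) and the floor plate factor Foxa1 (−0.57 ± 0.24, adjusted p = 0.267).

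Ccnd1, which drives entry into the cell cycle, read 2.07 and 1.79 in SN_NFIA, against 2.71 and 2.59 in SN_control, and 3.31 and 2.62 in PN_NFIA, against 4.23 and 3.89 in PN_control. The NFIA arrays lay below the control arrays at both passages. Mycn read 0.39 and −0.45 in SN_NFIA, against 1.24 and 0.89 in SN_control. In primary neurospheres it read 2.01 and 1.71 in PN_NFIA, against 2.63 and 2.20 in PN_control, again with no overlap at either passage. Groups did not overlap, in either direction, for 38.9% of all genes in secondary and 52.0% in primary neurospheres. The share of genes lower at both passages was not computed. Olig2, a marker of ventral progenitors and the oligodendrocyte lineage, had the largest passage estimate of the tested targets in NFIA cells, at 3.34 ± 0.90 (adjusted p = 0.102), and differed by 1.21 ± 0.90 between NFIA and control cells of secondary neurospheres (adjusted p = 0.594).

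Genes of the dorsal neural tube, which Hedgehog signalling keeps out of ventral cells, made up another list of 13, with 10 tested. None passed in any comparison, with 2 in secondary neurospheres, 1 in primary neurospheres and 0 over both at an unadjusted p under 0.05 between NFIA and control cells, 5 in each passage comparison and 1 in the difference of effects (limma). The shares of all genes at that threshold are those given for the targets. Their median difference was −0.02 in secondary neurospheres, 0.09 in primary neurospheres and 0.28 over both.

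The genes whose levels were most like those of a member were named for Scube2, Gli2 and Hhip, which had the largest SD over the 8 arrays, with Pearson's r as a description. Those arrays share their group, slide and scaling. Scube2 was most like Eya4 (r = 0.987), Mpp6 (0.983) and Sctr (0.981). Without both SN_NFIA arrays, the 2 farthest from the median, these values were 0.978, 0.975 and 0.955. Among the genes most like Gli2 were Insc (0.980) and E2f8 (0.978), and without SN_control 2 and SN_NFIA 2 the values were 0.826 and 0.683. Hhip was most like Slc2a10 (0.944), Slc35a3 (0.943) and Nfatc3 (0.923), and without PN_NFIA 2 and SN_NFIA 1 they were 0.874, 0.962 and 0.884.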

How the data were processed

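RNA of 8 samples was measured on 1 slide of 8 arrays with 1 scan date. A column kit was used for the RNA and a low-input kit for Cy3 labelling, per the labels. In the deposited scanner files each spot has an intensity, background-subtracted and detrended per the file headers by Feature Extraction 10.5.1.1 (the submitters' processing notes name 10.7.3.1). The authors' value table holds log2 values, which on comparison proved to be the same signals after scaling by the array's 75th percentile and centring of every probe at its median (largest absolute probe median 0.000245). Its column medians ran from −0.156 to 0.22.

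Each value-table column matched 1 scanner file (r of at least 0.9998, other files at most 0.3386), and for 7 of 8 columns it was the file of another sample. Values here are from the matched files, with the 75th percentile between 302.5 and 619.1 and 45.4% to 56.4% of spots well above background on an array. None of the spots was saturated, and 8 arrays limit the precision.

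The log2 processed signal minus the 75th percentile of the array was used. A probe was kept if it was well above background on both arrays of some group, 126 of 55681 probes were left out by outlier flags, and 26010 of the remaining 55555 had a symbol through the RefSeq table (GRCm38.p6). Of 13790 genes, 3644 had several kept probes, and the brightest stood for the gene. The 9 members had 13 probes, of which 12 were above background on all arrays. No member was lost to the filter.

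The tests used limma 3.58.1 (R 4.3.3) on 4 group means, or with passage and NFIA as additive terms for both passages together. P-values were adjusted by Benjamini-Hochberg over all genes, with a threshold of 0.05. Where no array of the dimmer group read a probe well above background, a bound on the fold was computed with those arrays set no lower than their dimmest signal that was. The fit was also run on simulated arrays with independent normal noise. These lack the shared deviations of same-numbered arrays and arrays that stand apart, so they do not check the calls under those conditions. Members and lists were chosen with earlier results of these data known. Named genes are the members, Nfia, genes of the component and target lists that passed a test, the 4 of each with the smallest p over both passages, and the 3 genes most like each of the 3 most variable members. A gene that meets this rule is not reported here. Ihh, Scube3 and Olig2 were named after their values were seen.

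Alternatives were normexp (offset 50), quantile normalization, the value table, other filters, outlier flags kept, the mean of probes, only the groups compared, replicate blocks, the attached files, groups from source names, and leaving out arrays. Normexp used the median spot signal, since the files hold no mean signal. A crossed replicate block and the dimmer probe of a member were added after seeing the data.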

Additional observations from a re-analysis of the deposited data

Results flagged for a closer look

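Scube2 and Smo were picked out because every secondary array lay on the opposite side of the primary arrays in NFIA and in control cells. Scube2 was higher in secondary than in primary neurospheres in NFIA cells (1.39 ± 0.39) and lower in control cells (−0.75 ± 0.39). The difference between these passage effects was 2.14 ± 0.55, and it did not pass limma's test over all genes (adjusted p = 0.394). For Smo the passage difference was 0.16 ± 0.30 in NFIA cells and −0.47 ± 0.30 in control cells, and the difference between them was 0.63 ± 0.43 (adjusted p = 0.915). The primary and secondary NFIA arrays of Smo at 4.53 differed only past the second decimal. The dimmer Smo probe did not show opposite directions, with passage differences of 0.97 ± 0.48 in NFIA cells and 0.17 ± 0.48 in control cells.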

How the results depend on the processing

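Of the 9 members, 1 (Scube2) passed between NFIA and control cells of secondary neurospheres. The count was 0 with only the 4 arrays compared in the fit, with the attached scanner files, with groups from the source names and without both arrays of conflicting labels, and 0 to 1 with single arrays left out. Over both passages the count of 1 was 0 with the attached files, with groups from the source names and without both arrays of conflicting labels, 2 (Cdon and Scube2) with the dimmer probes, and 0 to 1 with single arrays left out. The count in control cells between passages was 0 to 1 with single arrays left out, and those in primary neurospheres, between passages in NFIA cells and for the difference of effects were 0 throughout. Leaving out an array leaves a lone sample in its group, assumed to vary like the other groups. By source name, all 4 arrays titled control become NFIA and the 2 that become WT are titled NFIA, and 5 of the 9 members had the opposite sign over both passages.

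The replicate numbers are shared labels: deviations of same-numbered arrays correlated at 0.445 in primary and 0.484 in secondary neurospheres, and at 0.042 and −0.188 between passages in NFIA and control cells. With the number as a replicate block, Scube2 in secondary neurospheres had an adjusted p of 0.031 (0.0301 with a block within each passage), and over both passages 0.0403 (0.0571, so that 0 members passed). Ptch1, which did not pass in any alternative, had its lowest adjusted p over both passages, 0.0948, with a block within each passage. With the numbers crossed between passages, 110 genes passed in control cells, against 119.

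Scube2 kept its direction in 20 of 22 alternatives in secondary neurospheres, with 16 passing (adjusted p between 0.00426 and 0.987), and in 19 of 21 over both passages, with 12 passing (0.015 to 1). Several alternatives, such as leaving out a primary array, cannot move the secondary estimate, which stayed at 4.07, so the count of kept directions is no measure of robustness. The direction turned only with the attached files and with source names, which reassign the arrays. With the attached files the differences over both passages were 0.07 for Shh, −0.32 for Smo, −0.13 for Gli1, 0.66 for Gli2, −0.22 for Gli3 and −1.07 for Scube2, and Scube2 was −1.45 in secondary and −0.69 in primary neurospheres. With source names they were 0.52 for Shh, 0.80 for Gli2, −0.01 for Gli3, −0.56 for Cdon and −1.76 for Scube2, and Scube2 was −2.52 in secondary and −0.99 in primary neurospheres. Without both arrays of conflicting labels Shh was 0.11. With single arrays left out, Shh ran from −0.45 to 0.09, Smo from −0.06 to 0.23 and Gli3 from −0.24 to 0.32. The causes were not tested.

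Counts over all genes moved more, from 43 in primary neurospheres to between 0 (no filter on dim probes, among others) and 139 (only the groups compared), and from 129 in secondary neurospheres to between 0 (only the groups compared, among others) and 646 (block within each passage). Over both passages 271 became 143 without the filter, 67 without the conflicting arrays, and 0 with the attached files or source names. Between passages 260 in NFIA cells became 70 without the filter and 34 with only the groups compared, and 119 in control cells became 52 and 0. With single arrays left out, these 5 counts ran from 0 to 88, 7 to 455, 33 to 355, 0 to 747 and 8 to 444, and for the difference of effects from 0 to 30.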
